A study of Homo sapiens with 55 samples.

Results

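HEK293 cells carrying no GnRH receptor transgene were exposed to triptorelin, and 16 of the 55 arrays of the series bear on that exposure. They are 4 arrays of cells given 100 nM triptorelin for 1 h, 4 given 100 nM for 24 h, and 4 vehicle arrays at each of the same times, chosen by their labelled cell line, agent and time. The vehicle was a propylene glycol solution. HEK293 is a human embryonic kidney line transformed with adenovirus DNA, and its receptor status was labelled undetectable. SCL60, used here for comparison, is a HEK293 derivative stably expressing rat GnRH receptor at a high level and kept in G418. It contributed 3 vehicle and 4 triptorelin arrays at 1 h and 4 of each at 24 h. All cells were grown on Matrigel-coated plates in DMEM with fetal calf serum. Labels do not say whether replicates came from separate cultures, so p-values measure only the spread between these samples. The comparison addresses which transcript differences triptorelin made in cells without the transgene, and how small a difference these arrays could have shown.

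Triptorelin is a peptide agonist of the gonadotropin-releasing hormone receptor, a G protein-coupled receptor of pituitary gonadotropes. The receptor couples mainly to Gq/11 proteins, which activate phospholipase C, protein kinase C, calcium release and MAP kinases. Immediate early genes such as FOS and EGR1 follow within the first hour in responsive cells, and in gonadotropes the pathway drives CGA, which encodes the subunit shared by the glycoprotein hormones, together with LHB and FSHB. HEK293 cells possess downstream kinases of many receptors and are a common host for transfected receptors.

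Promoters of 3 genes whose levels matter below are shown from RefSeq (GRCh38.p14), from 250 bases before to 50 bases after the annotated start. Capitals mark matches on either strand to the cAMP response element TGACGTCA, to its core TGACG (which lies inside the full element), or to the CArG box, the serum response factor element. The full element occurred in 1.85% of 35114 promoters of this length, the core in 24.6% and the CArG box in 1.29%. CGA (chr6:87095057-87095356, minus strand) held 2 full elements and 5 core matches, 4 of them within the full elements, 1 per strand. EGR1 (chr5:138465229-138465528, plus strand) held 2 CArG boxes and 2 cores, and FOS (chr14:75278578-75278877, plus strand) 1 core. A match describes the letters only.
FOS: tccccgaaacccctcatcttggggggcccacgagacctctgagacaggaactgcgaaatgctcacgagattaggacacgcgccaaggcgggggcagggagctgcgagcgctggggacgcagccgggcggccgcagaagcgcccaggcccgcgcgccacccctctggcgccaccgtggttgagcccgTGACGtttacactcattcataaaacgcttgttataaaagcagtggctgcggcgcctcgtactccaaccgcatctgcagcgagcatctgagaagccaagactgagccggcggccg
EGR1: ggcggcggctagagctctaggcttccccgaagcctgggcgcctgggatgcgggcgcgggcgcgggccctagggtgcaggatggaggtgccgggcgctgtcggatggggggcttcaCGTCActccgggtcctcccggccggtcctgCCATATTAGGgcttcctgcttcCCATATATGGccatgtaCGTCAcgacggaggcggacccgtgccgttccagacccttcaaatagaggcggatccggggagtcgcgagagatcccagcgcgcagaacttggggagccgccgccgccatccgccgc
CGA: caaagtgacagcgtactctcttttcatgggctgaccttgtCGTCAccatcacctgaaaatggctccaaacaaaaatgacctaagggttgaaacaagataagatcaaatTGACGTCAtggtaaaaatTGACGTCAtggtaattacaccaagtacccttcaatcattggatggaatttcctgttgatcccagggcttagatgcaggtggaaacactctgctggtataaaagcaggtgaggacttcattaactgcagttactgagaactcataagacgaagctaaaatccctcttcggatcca

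Each array gave a signal and a detection p-value for 48803 probes, and a probe was called detected on an array where that p-value was under 0.01. Across the 16 arrays 12124 to 14611 probes were detected, and the median raw signal ran from 47 to 75. All levels below are log2 normalized signals. The lowest detected level lay between 5.34 and 6.05 on the individual arrays, and levels under it have no fold. Correlations between arrays of one group ran from 0.968 to 0.990 (median 0.980), and those between triptorelin and vehicle arrays of the same time from 0.967 to 0.996 (median 0.983). Taken alone, the agent accounted for 4.58% of the variance over the 16 arrays, time for 12.9%, hybridisation batch for 11.9%, labelling batch for 30.1%, chip for 35.7% and replicate number for 39.5%. These shares are not comparable as they stand, since agent, time and hybridisation batch have 2 levels, labelling batch 3, replicate number 4 and chip 5, and more levels take up more variance by chance. Along the first 2 components the replicate 1 arrays at 1 h, 1 of each agent, lay furthest from the rest.

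**Figure D1:**
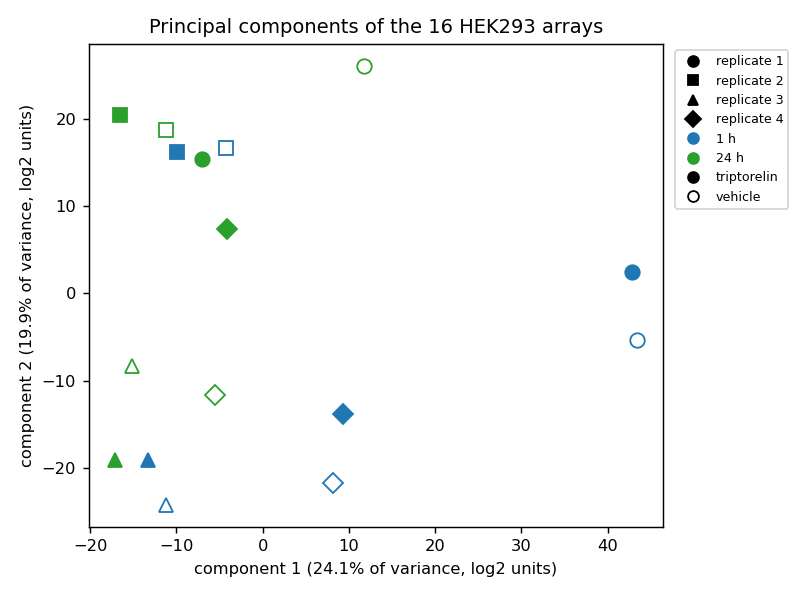
Positions of the 16 HEK293 arrays on principal components 1 (24.1% of variance) and 2 (19.9%), computed over all tested probes; filled symbols are triptorelin, open symbols vehicle, colour gives the time and shape the replicate number. Filled and open symbols are interspersed, and the 2 arrays of replicate 1 at 1 h sit together at the far right.

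The cells carried transcripts of HEK293 and of much of the signalling path downstream of the receptor, but not of the human receptor. GNRHR was not detected on any of the 16 arrays (4.51 ± 0.16, SD, n = 4, with vehicle at 1 h and 4.51 ± 0.08 with triptorelin), a level among undetected probes. The probe is for the human gene and says nothing of a rat transcript. GNRH2, a GnRH peptide precursor, LHB and FSHB were likewise undetected on all 16, while GNRH1 was detected on 11. Of the 41 genes of the receptor pathway list on the array, 27 were detected on all 16 arrays, among them GNA11 (mean level 9.30) and GNAQ (7.38), the Gq/11 alpha subunits, PRKCA (8.90), a protein kinase C, and MAP2K1 (9.77) and MAPK3 (9.92) of the ERK cascade. The phospholipases PLCB2 and PLCB3 were detected on none, and PLCB1 on 8. Of 17 epithelial and neuronal-type markers of HEK293, 11 were detected on all 16 arrays, led by the neurofilament gene NEFM (13.59) and vimentin, VIM (11.56). KRT19, PAX2 and GAP43 of this list were detected on none. Markers of other cell types were mostly missing. Detected on no array were 8 of 11 fibroblast markers, COL1A2 and THY1 included, and 7 of 10 blood cell markers, PTPRC included. CD68 was the one marker of these 2 lists detected on all 16. PDGFRA was detected on 14, CD14 on 11, S100A4 on 7, COL1A1 on 3 and MS4A1 on 2.

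No probe passed the test for triptorelin in HEK293 cells at either time. In these bulk samples fewer cells of a kind and less RNA per cell cannot be told apart. In limma's moderated test with Benjamini-Hochberg adjustment at 0.05, 0 of 16016 probes (0%) were called in the average of both times, 0 at 1 h and 0 at 24 h, and the smallest adjusted p was 0.9999, 1.000 and 0.9998. At an unadjusted p under 0.05 there were 323 probes (2.02%) in the average, 338 (2.11%) at 1 h and 357 (2.23%) at 24 h. The difference between the 24 h and the 1 h effect was called for 0 probes too, with 284 (1.77%) at an unadjusted p under 0.05. Leaving out any 1 of the 16 arrays changed none of these 4 counts of calls. Within hybridisation batch 1 alone 0 probes were called in each comparison, and within batch 2, with 1 triptorelin array at 1 h, 1 probe without a gene name was called at 1 h and for the difference between times. Leaving out triptorelin replicate 1 at 1 h raised the probes at an unadjusted p under 0.05 to 573 in the average and 596 at 1 h, and leaving out vehicle replicate 2 or 3 at 24 h raised those at 24 h to 592 or 752. By contrast, the same fit called 80 probes (0.5%) in SCL60 at 1 h, all higher with triptorelin, and 355 (2.22%) had an unadjusted p under 0.05 there. At 24 h it called 1522 (9.5%), 698 higher (4.36%) and 824 lower (5.14%). The SCL60 count at 1 h was 51 without vehicle replicate 2, 53 without vehicle replicate 4 and 53 without triptorelin replicate 1.

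**Figure D2:**
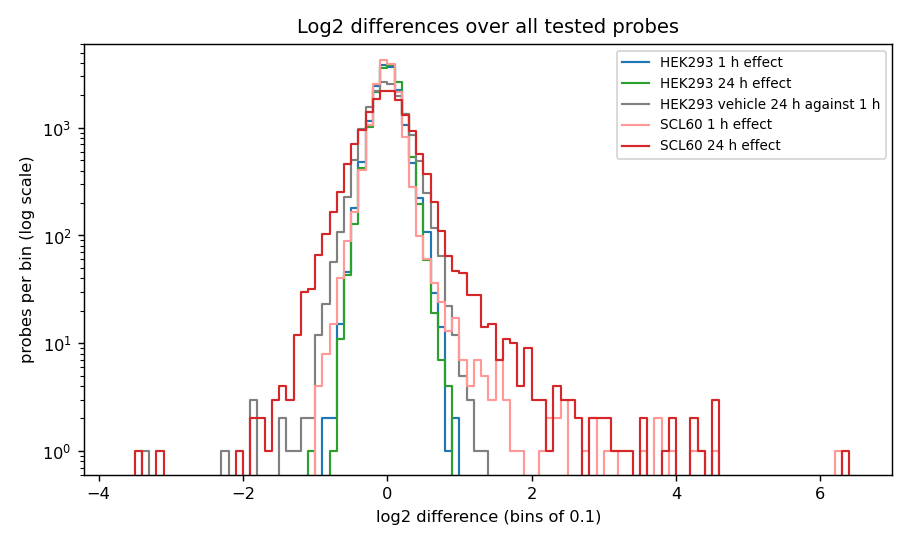
Number of tested probes (log scale) in bins of 0.1 by log2 difference, for triptorelin minus vehicle in HEK293 and SCL60 at 1 h and 24 h and for HEK293 vehicle at 24 h minus 1 h. The HEK293 triptorelin curves end within about 1 of zero, with extremes of 0.93 at 1 h and -1.09 at 24 h, while those of SCL60 reach 6.22 and 6.38.

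For most probes detected on all 16 arrays, signal changes of 2-fold or more lay outside the 95% interval of the triptorelin effect. Fold here is of normalized signal, which includes an offset of 16, so at dim probes it can be smaller than the fold in transcript. Mean levels of these probes went down to 6.02. Among the 10772 probes detected on all 16 arrays, the 95% interval of the average effect lay wholly within 2-fold of no change for 99.9%, leaving 16 probes. It did so for 97.8% at 1 h (236 probes left) and 98.8% at 24 h (131 left). Within 1.5-fold lay 94.4% of the intervals of the average effect, but 71.5% at 1 h and 71.9% at 24 h. The median distance from estimate to bound was 0.26 on the log2 scale for the average and 0.37 (1.30-fold) at each time. In this fit smaller changes could thus not be told from none at a typical probe. Over all 16016 probes the shares within 2-fold were 99.8%, 97.3% and 98.0%. These include 765 probes detected on none of the 16 arrays, for which the interval bounds a signal and not a fold. The fit held no replicate or batch term, so the stated limits depend on that choice. With a replicate block on the 16 arrays alone, the shares of the 16016 probes within 2-fold were 99.94%, 99.38% and 99.31%.

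The intervals hold probe by probe. When widened to hold for all 16016 probes at once, the median distance from estimate to bound among the probes detected on all 16 arrays was 1.62-fold for the average and 1.97-fold at each time. Such wide intervals stayed within 4-fold for 99.8%, 97.2% and 97.8% of these probes. A lone probe would have needed a log2 difference of 1.04 (2.06-fold) at one time, or 0.74 (1.67-fold) in the average, to be called at the median standard error over all tested probes. The largest log2 differences seen in the average were 0.70 and -0.61. At 1 h they were 0.93 and -0.86, and at 24 h 0.90 and -1.09, where 1 probe exceeded 1 in size. Precision rose with signal: the median distance at each time was 1.35-fold in the dimmest 4004 probes and 1.27-fold in the brightest 4004.

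**Figure D3:**
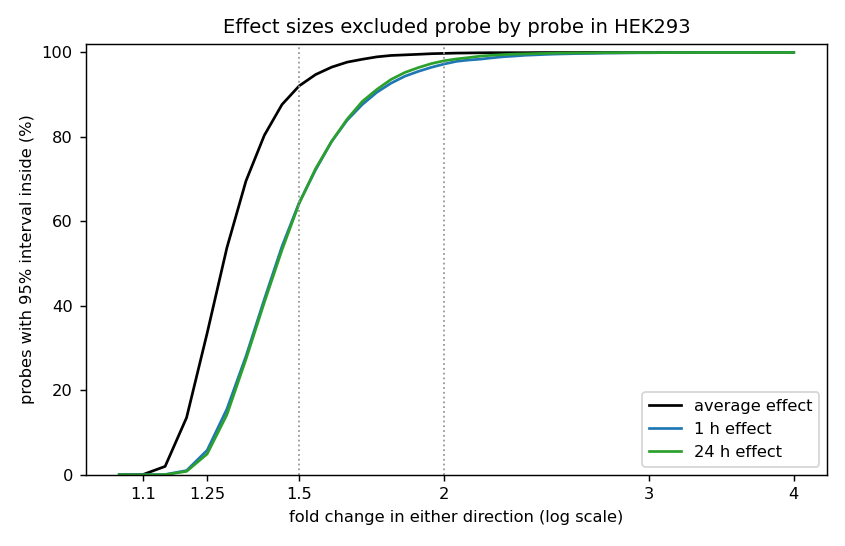
Percent of the 16016 tested probes whose 95% interval lies wholly inside a given fold change in either direction (log axis), for the average effect and each time; dotted lines mark 1.5-fold and 2-fold. At 2-fold the curves stand at 99.8%, 97.3% and 98.0%, and at 1.5-fold at 92.1%, 64.4% and 64.2%.

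None of the immediate early genes that rose most in SCL60 at 1 h passed the test in HEK293. FOS, which pairs with JUN proteins in AP-1, stood at 7.52, 6.29, 7.70 and 8.15 on the 4 vehicle arrays at 1 h, in order of replicate. With triptorelin it stood at 6.73, 6.41, 7.35 and 7.32. The groups overlapped, and the triptorelin values lay within the range of the vehicle values. The log2 difference was -0.46 (SE 0.36, 95% interval -1.18 to 0.26), against 4.51 (SE 0.39) in SCL60, where FOS reached a mean of 11.59. Within hybridisation batch 1 the HEK293 difference was 0.03 and within batch 2, which held 1 triptorelin array at 1 h, -1.10. At 24 h FOS was detected on no HEK293 array of either group, so no fold is given.

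FOSB, another AP-1 subunit, was detected on all 8 arrays at 1 h. Its levels were 6.35, 6.48, 7.11 and 6.45 with vehicle and 6.07, 7.30, 6.63 and 6.56 with triptorelin, and the range with triptorelin enclosed that with vehicle. The difference was 0.04 (95% interval -0.59 to 0.67), while in SCL60 it was 6.22 (SE 0.34), 74.7-fold. DUSP1, a phosphatase that switches off MAP kinases, was well expressed, at 10.06, 9.23, 10.02 and 9.97 with vehicle and 9.46, 9.52, 10.08 and 10.04 with triptorelin. These values overlapped, with a difference of -0.05 (-0.55 to 0.46). ATF3, a stress-responsive bZIP factor, had means of 9.31 ± 0.24 and 9.31 ± 0.18 (SD, n = 4 each) and a difference of 0.00 (-0.40 to 0.40), the tightest of the well-expressed early genes named here.

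Among the dimmer early genes, JUNB, an AP-1 subunit, was detected on 3 vehicle and 4 triptorelin arrays at 1 h and differed by 0.13 (-0.50 to 0.76). EGR3, a zinc finger factor, was detected on 3 and 2 and differed by -0.17 (-0.56 to 0.22), and NR4A2, an orphan nuclear receptor, on 1 and 1, with 0.09 (-0.47 to 0.66). NR4A1, its relative, PTGS2, the inducible prostaglandin synthase, and CGA were detected on none of the 8 arrays, and no fold is given for them. In SCL60 at 1 h, NR4A1 rose at least 5.50-fold and CGA at least 3.64-fold, since neither was detected there with vehicle and the lowest detected level stands in for it. At the brightest tested probe of each gene, the difference between the lines passed the test for all 10 of these early genes, from 2.45 for ATF3 (adjusted p = 6.70e-08, limma) to 6.18 for FOSB (adjusted p = 3.98e-14, limma). Second tested probes existed for 4 of the 10. Those of NR4A2 and PTGS2 passed too, while those of ATF3 (0.76, limma adjusted p = 0.9998) and EGR3 (0.40, limma adjusted p = 0.9998) did not, nor were these 2 probes called in SCL60 at 1 h. In HEK293 all 4 second probes differed by 0.03 or less in size. The genes had been chosen as the 10 largest rises in SCL60, so the SCL60 side is a description.

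**Figure D4:**
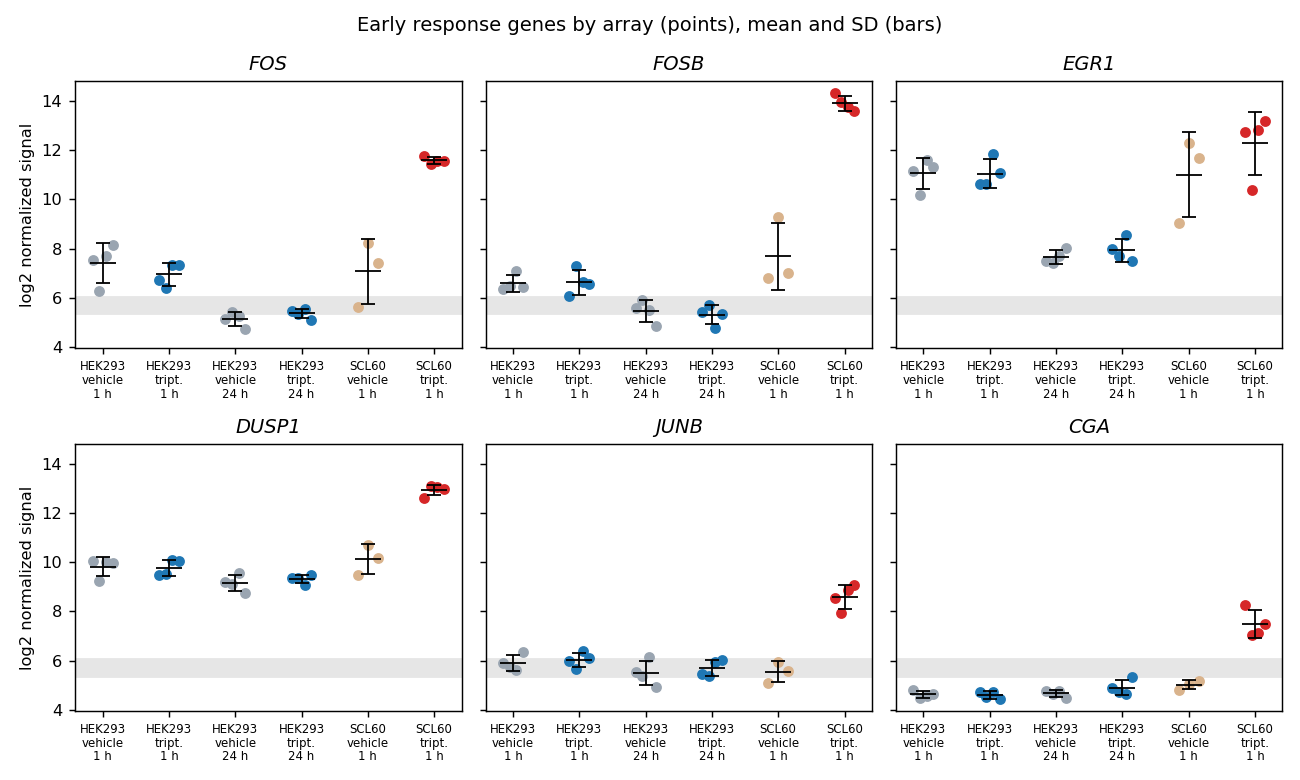
Log2 normalized signal of FOS, FOSB, EGR1, DUSP1, JUNB and CGA on each array (points) with the group mean and SD (bars), for HEK293 vehicle and triptorelin at 1 h and 24 h and for SCL60 at 1 h; the grey band spans the lowest detected level of the 16 HEK293 arrays (5.34 to 6.05). HEK293 triptorelin points overlap those of their vehicle group in every panel, and the SCL60 triptorelin points for FOS average 11.59.

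None of the genes that rose most in SCL60 at 24 h passed the test in HEK293 at that time. CGA stood at 4.75, 4.64, 4.78 and 4.49 with vehicle and at 4.88, 4.73, 4.64 and 5.35 with triptorelin, undetected on all 8 arrays. In SCL60 it reached a mean of 11.42 after 24 h of triptorelin, at least 53.9-fold above vehicle. CCN2 and CCN1, secreted matrix-associated regulators, were detected on every HEK293 array and could be bounded. CCN2 stood at 6.51, 7.75, 7.18 and 6.13 with vehicle and 6.32, 7.57, 6.82 and 6.92 with triptorelin. These groups overlapped, with a difference of 0.01 (-0.96 to 0.99), an interval that reaches nearly 2-fold. CCN1 differed by 0.09 (-0.70 to 0.87). ETV5, an ETS transcription factor, was detected on 1 vehicle and 2 triptorelin arrays and differed by 0.15 (-0.27 to 0.58), LBH, a transcription cofactor, on 1 of each, with 0.11 (-0.40 to 0.63), and TNFRSF12A, the TWEAK receptor, on 1 and 2, with 0.18 (-0.23 to 0.58). The tachykinin precursor gene TAC1, neurotensin (NTS), the metalloproteinase gene MMP10 and the carboxypeptidase gene CPA4 were detected on none of the 8 arrays at 24 h.

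None of the genes that fell most in SCL60 at 24 h passed in HEK293, and 8 of these 10 were detected on all 8 arrays. IGFBP5, an insulin-like growth factor binding protein, stood at 8.76, 9.62, 9.95 and 9.72 with vehicle and 9.64, 9.78, 10.25 and 9.31 with triptorelin. The groups overlapped and the difference was 0.23 (-0.20 to 0.65), against -3.47 (SE 0.21) in SCL60. AMOT, angiomotin, a regulator of the Hippo pathway, differed by 0.05 (-0.28 to 0.38), NREP by -0.04 (-0.36 to 0.28), and FZD4, a Wnt receptor, by 0.11 (-0.23 to 0.45). SAMD11 (0.03), KIAA1549L (0.06), TMEM266 (0.15) and the pseudogene ALG1L1P (-0.18) also had intervals inside 2-fold. A second SAMD11 probe differed by -0.39 (-0.78 to 0.01) in HEK293 (unadjusted p = 0.0546, limma adjusted p = 0.9998). Its interval overlapped that of the first probe (-0.52 to 0.57). In SCL60 both SAMD11 probes were called lower, the first at -1.67 and the second at -0.59 (limma adjusted p = 0.0443). SRGAP3 and the interferon-induced gene IFIT1 were detected on 2 and 5 of the 8 arrays and differed by -0.01 and 0.14. At the brightest tested probe the difference between the lines passed for these 20 late genes, the largest adjusted p being that of ALG1L1P at -1.53 (adjusted p = 0.00617, limma). It did not pass at the second probes of ALG1L1P (-1.02, limma adjusted p = 0.0714) and SAMD11 (-0.21, limma adjusted p = 0.820). It passed at the other tested probes of CCN2, ETV5, IGFBP5, LBH and TAC1. These 20 genes had been chosen as the largest rises and falls called in SCL60 on the same arrays. That choice favoured passing, so the SCL60 side is a description.

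**Figure D5:**
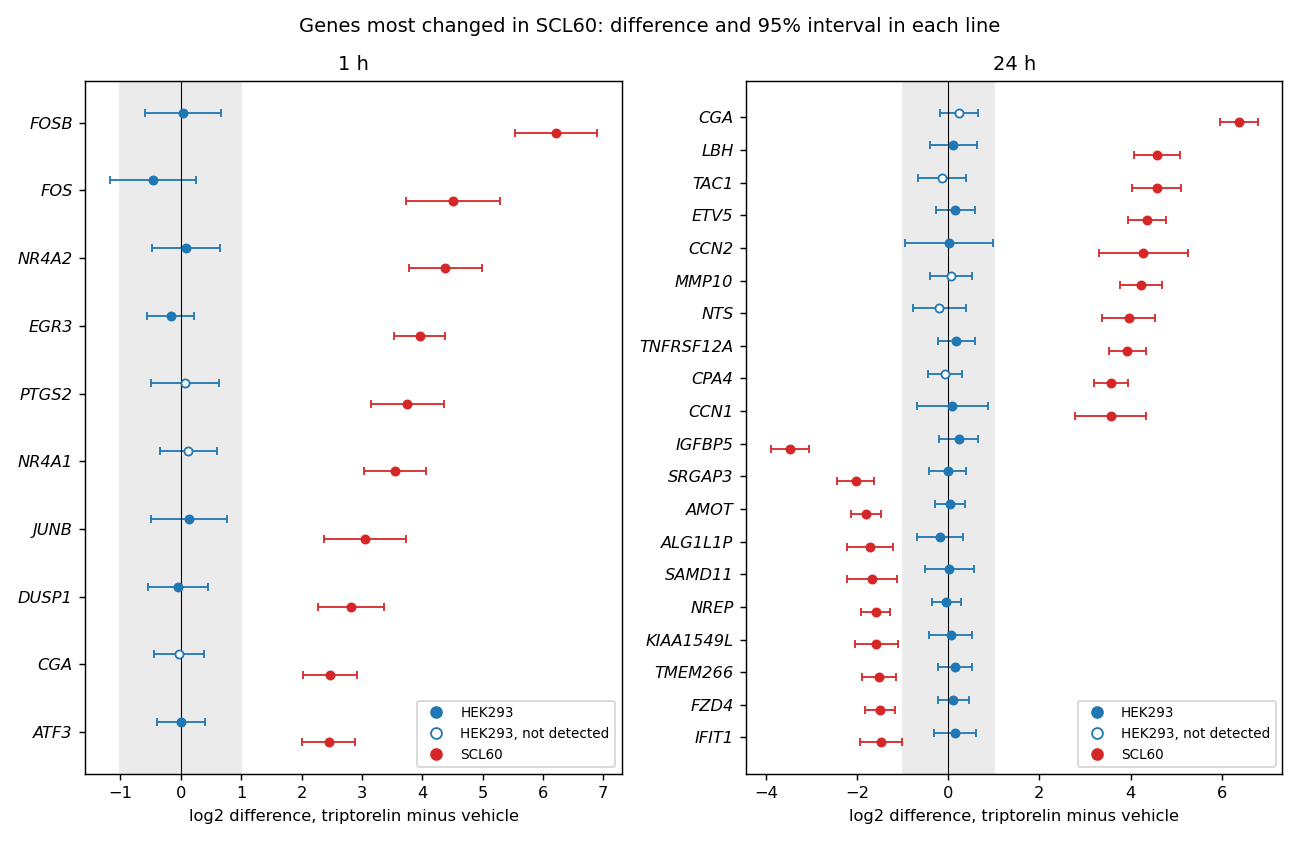
Log2 difference, triptorelin minus vehicle, with 95% interval, in HEK293 (blue) and SCL60 (red) for the 10 genes of largest rise in SCL60 at 1 h (left) and the 10 largest rises and 10 largest falls at 24 h (right); open symbols mark genes detected on no array of either HEK293 group, and grey marks 2-fold. All 30 HEK293 estimates lie within grey, whereas all 30 SCL60 estimates lie outside it.

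The wider sets of SCL60 responders had medians near zero in HEK293. For the 80 probes called in SCL60 at 1 h (median log2 difference 1.26 there), the HEK293 median was 0.00 with a range from -0.46 to 0.38, 42 of the 80 lay on the SCL60 side of zero, and 0 were called. Their 95% interval in HEK293 left out the SCL60 estimate for all 80, lay wholly apart from the SCL60 interval for 69 and lay within 2-fold for 79. For 14 of them neither HEK293 group had a detected array, so their intervals bound no fold. Over all 16016 probes at 1 h, 97.3% of intervals lay within 2-fold and the median difference was -0.003. The difference between the lines passed for 38 probes (0.237% of those tested, beside 2.33% at an unadjusted p under 0.05). For the 698 probes higher in SCL60 at 24 h (median 0.74), the HEK293 median was 0.01 with a range from -0.58 to 0.47, 0 were called, 362 lay on the SCL60 side of zero, and 12 had an unadjusted p under 0.05. For the 824 lower ones (median -0.69) it was 0.04, from -0.45 to 0.54, with 0 called, 319 on the SCL60 side and 20 at an unadjusted p under 0.05. Over all probes at 24 h the share at that level was 2.23%, and the median difference was 0.02, above zero. For the 824 lower probes the median of 0.04 lay above it, and most of them lay opposite to SCL60. The share of all probes on each side of zero is not given here, so the counts on the SCL60 side are a description only. Neither HEK293 group had a detected array for 126 of the 698 and 53 of the 824, and their intervals bound no fold. With these included, the HEK293 interval left out the SCL60 estimate for 678 and 806 probes, and lay wholly apart from the SCL60 interval for 380 and 430. The difference between the lines was called for 281 and 267 of these probes, out of 566 (3.53%) over all probes, 289 on the higher side (1.8%) and 277 on the lower (1.73%). SCL60 estimates of probes chosen for passing the test are a description and may be larger than new arrays would give.

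Gene lists were described by the gene's brightest tested probe, and 0 members of any of the 22 lists were called in either direction in the average, at 1 h or at 24 h. Over all 10467 genes tested, 0 were called, and the median log2 difference was -0.00 in the average, -0.01 at 1 h and 0.01 at 24 h. For the receptor pathway (34 genes tested) the medians were -0.01, -0.02 and 0.03. MAPK8, the stress kinase JNK, and GNAI2, an inhibitory G protein subunit, had the smallest p of the list in the average, with differences of 0.16 (-0.04 to 0.36) and -0.22 (-0.51 to 0.06). For 30 immediate early genes the medians were 0.00, -0.01 and 0.07. In SCL60 at 1 h 19 of them were called higher, beside 61 of all 10467 genes. These genes were less tightly bounded than most. At 1 h 28 of the 30 had HEK293 intervals within 2-fold and 14 within 1.5-fold, beside 10230 and 7130 of all 10467 genes. The 30 include 5 detected on none of the 16 arrays, whose intervals bound no fold. For 12 MAP kinase feedback regulators the medians were 0.05, 0.03 and 0.11. They include the Sprouty inhibitor gene SPRY1 (0.12, -0.09 to 0.33) and SPRED1 (0.16, -0.06 to 0.38). Calcium and cAMP response genes (14) had medians of -0.01, -0.06 and -0.04. Gonadotrope genes (10) had medians of 0.01, -0.04 and 0.07; of these FST, the activin-binding follistatin, differed by 0.11 (-0.09 to 0.31) and PITX1, a pituitary homeobox factor, by -0.09 (-0.35 to 0.16). Targets and members of the NF-kappaB pathway (18) had medians of 0.02, -0.04 and 0.12, and SRF and YAP/TEAD targets (16) of 0.04, 0.03 and 0.06.

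Growth and stress lists also had medians near that of all genes, given here for the average effect. They were -0.00 for 27 growth arrest genes, 0.01 for 29 apoptosis regulators, 0.01 for 35 genes of G1/S and DNA replication and -0.00 for 36 of G2/M and mitosis. The mitotic cyclin gene CCNB2 differed by 0.16 (-0.02 to 0.34) and POLD1, a DNA polymerase subunit, by -0.30 (-0.67 to 0.06). Medians were -0.02 for 28 genes of ER stress and the amino acid response, -0.00 for 23 of heat shock and oxidative stress, -0.03 for 24 of hypoxia and glycolysis, -0.07 for 14 of the interferon response, -0.02 for 16 of cholesterol synthesis, 0.00 for 21 of ribosome biogenesis and -0.00 for 23 of oxidative phosphorylation. Within these, HSPB1, a small heat shock protein, IFITM3, an interferon-induced membrane protein, and PMVK, a mevalonate pathway kinase, had unadjusted p-values under 0.05, at -0.30, -0.33 and -0.37, against 169 of all 10467 genes. None passed the adjustment. HEK293 markers (15 tested) had a median of -0.04, fibroblast markers (3) of -0.03, blood cell markers (3) of 0.01 and reference genes (11) of 0.03. ACTB differed by 0.14 (-0.05 to 0.34), GAPDH by -0.04 (-0.22 to 0.14) and TBP by 0.05 (-0.13 to 0.24).

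The genes of smallest p are given as the nearest these arrays came to a difference, with none passing. LSR, a lipoprotein receptor found at cell junctions, had the smallest p of all probes in the average effect. It stood at 7.31, 6.85, 7.26 and 6.64 with vehicle and 6.53, 6.26, 6.57 and 6.35 with triptorelin at 1 h. At 24 h it stood at 6.40, 6.36, 6.99 and 6.82 with vehicle and 6.29, 6.08, 5.79 and 6.24 with triptorelin. At both times the groups did not overlap, and the average difference was -0.56 (SE 0.13, adjusted p = 0.9999, limma). The genes named here were picked for their small p, which favours groups that do not overlap. The share of all probes that separate in this way was not counted, so the separation is a description only. With triptorelin at 24 h the LSR levels also lay close to the lowest detected level on those arrays, 5.46 to 5.80. A second LSR probe gave -0.30 (SE 0.18). Within hybridisation batches 1 and 2 the first probe gave -0.77 and -0.32. The other falls were ZNF335 (-0.49), ITPKC (-0.39), an inositol trisphosphate kinase, GFRA1 (-0.36), a GDNF receptor, and EXOSC1 (-0.29), an RNA exosome subunit. On the side of higher levels were TTC28 (0.44), ZNF813 (0.43), CDH12 (0.38), a cadherin, ZNF433 (0.36) and FASTKD2 (0.29), a mitochondrial RNA-binding protein. ZNF813 stood at 7.12, 7.47, 7.43 and 7.21 with vehicle and 7.69, 8.09, 7.57 and 7.96 with triptorelin at 1 h, and did not overlap there, but at 24 h its values overlapped.

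At 1 h alone the 5 lower genes of smallest p were DOK4 (-0.61), RABGAP1L (-0.71), ZNF775 (-0.69), LSR (-0.59) and LHFPL4 (-0.62), and the 5 higher ones TTC28 (0.61), JAM2 (0.52), DCUN1D1 (0.63), ZNF813 (0.52) and ZNF347 (0.39). DOK4, a docking protein, differed by 0.10 at 24 h and RABGAP1L, a Rab regulator, by 0.00. At 24 h the 5 higher were ZNF433 (0.57), MSH5 (0.69), TSPAN3 (0.46), RPL3 (0.50) and KHK (0.75), and the 5 lower UBXN10 (-0.65), LSR (-0.54), ERG (-0.67), WNT16 (-0.57) and STAC (-0.51). Other tested probes of 4 of the higher genes did not share these differences: they stood at -0.04 for RPL3, 0.08 for TSPAN3, 0.07 for KHK and from -0.25 to 0.17 for the 4 other MSH5 probes. Several of the differences moved with 1 array. KHK, fructokinase, stood at 6.77, 6.54, 6.64 and 4.94 with vehicle at 24 h, so that replicate 4 lay apart. RPL3, a ribosomal protein gene, stood at 14.04, 13.83, 13.60 and 12.56 there. Without this array KHK differed by 0.32, RPL3 by 0.18, ERG by -0.44 and UBXN10 by -0.42, and the probes at an unadjusted p under 0.05 at 24 h fell from 357 to 60 (from 323 to 144 in the average). The array had a mean correlation of 0.970 to the rest of its group and 0 probes were called with or without it.

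The same arrays did resolve a difference between the times, seen with and without triptorelin. EGR1, a zinc finger early gene, stood at 11.14, 10.17, 11.62 and 11.30 with vehicle at 1 h and at 7.49, 7.43, 7.69 and 8.04 at 24 h. With triptorelin it stood at 10.64, 10.62, 11.86 and 11.07, then at 7.98, 7.71, 8.57 and 7.49. Times did not overlap in either arm, whereas the agents overlapped at both times. The change from 1 h to 24 h was -3.40 (SE 0.50, adjusted p = 0.000257, limma) with vehicle and -3.11 (SE 0.50, adjusted p = 0.00199, limma) with triptorelin. EGR1 without treatment at 0 h was 8.15 ± 1.08 (SD, n = 4). FOS fell at least 3.11-fold by 24 h with vehicle (adjusted p = 0.000464, limma). With triptorelin FOS was at least 2.46-fold lower at 24 h, which missed the threshold (adjusted p = 0.0686, limma).

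In all, 22 probes (0.137%) were called between the times with vehicle, 7 higher at 24 h (0.0437%) and 15 lower (0.0937%), and 10 probes (0.0624%) with triptorelin, 3 higher (0.0187%) and 7 lower. CCN1 (-1.89 with vehicle, -1.87 with triptorelin) and ZNF606 (1.04 and 1.08) passed in both arms. DUSP5, a MAP kinase phosphatase (-1.31), SNORD31, a small nucleolar RNA (-1.25), RSBN1 (0.74), INTS6 (0.74), a subunit of the Integrator complex, FLRT3 (0.91) and ZNF566 (0.98) passed with vehicle and were -1.09, -0.98, 0.43, 0.45, 0.43 and 0.13 with triptorelin. The arms were not shown to differ for any of these, since 0 probes were called in the test of that difference. Counts between times moved with single arrays. With vehicle they were 5 without 24 h replicate 4, 6 without 1 h replicate 1, 13 without 1 h replicate 4 and 41 without 1 h replicate 2. With triptorelin they were 1 without 24 h replicate 1, 2 without 1 h replicate 3 or replicate 4, 5 without 24 h replicate 3 and 6 without 1 h replicate 1. EGR1 passed in both arms whichever array was left out, while CCN1 passed in 5 of 8 such fits with vehicle and 2 of 8 with triptorelin. Of the genes that passed with vehicle alone, RSBN1 passed in 7 of those 8 fits, DUSP5 and SNORD31 in 6, FLRT3 in 4, ZNF566 in 2 and INTS6 in 1.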

How the data were processed

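Total RNA was amplified and hybridised to Illumina HumanHT-12 v3 arrays. The authors deposited a table of non-normalized intensity per probe and array with a detection p-value per the file headers, and a table of normalized intensity, used as an alternative. How the scanner software made them is not given in the sources used here. Columns were tied to samples by the sample numbers in the labels. Intensities were background corrected with limma's nec (normexp with negative controls inferred from detection p-values, offset 16), quantile normalized over 55 arrays and put on a log2 scale (limma 3.58.1, R 4.3.3). Probes detected (p-value under 0.01) on at least 3 arrays were kept, 16016 of 48803. Of these 13690 had 1 symbol from the platform annotation, 2 several and 2324 none; 28059 of 28098 probes with 1 symbol on the array matched RefSeq by gene identifier. A gene is its tested probe of highest mean signal.

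A model with 14 group means was fitted to all 55 arrays with limma (lmFit, eBayes with intensity trend, 49.1 degrees of freedom), and p-values were Benjamini-Hochberg adjusted over the 16016 probes at 0.05. The 95% intervals use the moderated standard errors, and the simultaneous ones a Bonferroni level. The code was tested on simulated data. The number of arrays, 4 per group, limits the precision. Named genes were, by rule, the largest changes called in SCL60, the smallest p-values in each HEK293 comparison, up to 2 of smallest p in each list, references, the largest changes between the vehicle times, and GNRHR, GNRH1, GNRH2, CGA, FSHB and LHB. Members, lists and rules were chosen with earlier results of these data known. The comparison of triptorelin times was added after seeing the data. Alternatives were no background correction, the deposited normalized values, cyclic loess, other filters, 1 probe per gene, the 16 arrays alone, batch and chip terms, array weights, no trend, a replicate block and each array left out. The replicate numbers were checked as pairs.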

Additional observations from a re-analysis of the deposited data

Results flagged for a closer look

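On 15 of 184 groups of 4 arrays, 1 array lay apart from the other 3 by Dixon's criterion, which chance alone meets in about 1 group in 20. Among vehicle arrays at 1 h these were the median signal of replicate 2 (67), DUSP1 in replicate 2 (9.23), SAMD11 in replicate 3 (7.85), and in replicate 1 ATF3 (9.68), ETV5 (5.20), SRGAP3 (4.70) and ACTB (13.51). Among triptorelin arrays at 1 h they were TNFRSF12A (6.30) and AMOT (6.40) in replicate 4, TBP in replicate 2 (8.91) and DUSP5 in replicate 3 (7.49). At 24 h they were, with vehicle, the median signal of replicate 3 (68) and NR4A2 in replicate 4 (4.58), and with triptorelin NR4A2 in replicate 3 (5.17) and AMOT in replicate 1 (7.30). None of these arrays was left out of the report's main values, and no fit that left out just 1 array called a probe for triptorelin.

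The effect of triptorelin differed between SCL60 and HEK293, by the test of the difference itself in limma, for 30 named genes. They had been chosen for their change in SCL60 on the same arrays, which favoured passing. At 1 h the SCL60 effect minus the HEK293 effect, in log2 signal, was 6.18 for FOSB, 4.97 for FOS, 4.29 for NR4A2, 4.13 for EGR3, 3.68 for PTGS2, 3.43 for NR4A1, 2.92 for JUNB, 2.87 for DUSP1, 2.50 for CGA and 2.45 for ATF3. At 24 h it was 6.15 for CGA, 4.71 for TAC1, 4.46 for LBH, 4.27 for CCN2, 4.21 for ETV5, 4.17 for MMP10, 4.15 for NTS, 3.75 for TNFRSF12A, 3.64 for CPA4 and 3.48 for CCN1. Among genes that fell in SCL60 it was -3.70 for IGFBP5, -2.02 for SRGAP3, -1.85 for AMOT, -1.70 for SAMD11, -1.68 for TMEM266, -1.64 for KIAA1549L, -1.62 for IFIT1, -1.61 for FZD4, -1.55 for NREP and -1.53 for ALG1L1P. Where a gene was not detected in HEK293 (PTGS2, NR4A1, CGA, TAC1, MMP10, NTS and CPA4), the value is a difference of signals and not a fold. EGR3 at 1 h and ETV5 at 24 h were not detected with vehicle in SCL60, nor were NR4A1, CGA, TAC1, MMP10, NTS and CPA4 at the times named here, so that their SCL60 rise has only a lower bound, 3.46 in log2 signal for EGR3 and 3.61 for ETV5. Second probes of ATF3, EGR3, SAMD11 and ALG1L1P did not pass this test.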

How the results depend on the processing

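Of 32 alternatives, 30 left 0 probes called in HEK293 at 1 h, and all 32 did so at 24 h and in the average; 31 did for the difference between the times. The exceptions are 3 single calls. Without a filter on dim probes, 1 of 48803 probes was called at 1 h, a probe of SMTN at -0.56 (limma adjusted p = 0.00982). Within hybridisation batch 2, with 1 triptorelin array at 1 h assumed to vary like the other groups, 1 unnamed probe was called at 1 h (-1.87, limma adjusted p = 0.0157) and 1 for the difference between times, the same probe (2.73, limma adjusted p = 0.00327). Leaving out each array in turn gave 0 to 0 calls in all 4 comparisons. Intervals within 2-fold ran from 97.25% to 99.95% of probes in the average, 73.86% to 99.38% at 1 h and 77.39% to 99.73% at 24 h, the lowest within one hybridisation batch, where fewer arrays were used; with an array left out the ranges were 99.41% to 99.86%, 94.27% to 97.31% and 94.21% to 98.12%. The share within 1.5-fold ran from 63.55% to 98.38% in the average, 11.84% to 89.86% at 1 h and 17.91% to 89.7% at 24 h, at each time lowest within a hybridisation batch and highest without background correction. Probes at an unadjusted p under 0.05 ran in the average from 119 among probes detected on all 16 arrays to 2087 without the filter. Samples of one replicate number correlated in their deviations, for numbers 1 to 4, at 0.69, 0.62, 0.48 and 0.09 at 1 h. At 24 h the correlations were 0.26, 0.47, 0.42 and 0.06, so number 4 was lowest at both times. At 1 h the arrays of numbers 1, 2 and 3 each shared a chip within the number, and those of number 4 did not. Paired cultures and shared chips therefore cannot be told apart at 1 h. At 24 h only the arrays of number 2 shared a chip. Numbers 1 and 3 still correlated best with their own number there, the highest correlation to another number being 0.09 and 0.14. Whether replicate numbers mark paired cultures was not tested. With a replicate block on the 16 arrays 0 probes were called in each comparison (smallest limma adjusted p 0.535 in the average), 767, 1025, 710 and 877 had an unadjusted p under 0.05 in the average, at 1 h, at 24 h and between the times, and 99.94%, 99.38% and 99.31% of intervals lay within 2-fold. Among named genes, 3287 of 3325 log2 differences moved by less than 1 SD between arrays of a group, 38 moved further and 0 were called. Many of these values could not move. Other filters, no trend, the 16 arrays alone and the replicate block leave a difference as it was. So does leaving out an array of the other time for an effect at 1 time. The count is therefore no measure of stability. Alternatives for the other 6 comparisons were chosen after seeing the data. With single arrays left out, calls ran from 5 to 41 between vehicle times, 1 to 8 between triptorelin times, 51 to 77 in SCL60 at 1 h, 1067 to 1420 in SCL60 at 24 h, and 30 to 38 and 384 to 573 for the differences between the lines. Signals near background limit the fold that can be seen, and the cause of these shifts was not tested.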

Other observations

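In HEK293 the share of probes at an unadjusted p under 0.05 was 2.02% in the average effect, 2.11% at 1 h and 2.23% at 24 h, below the 5% of an even spread of p-values, and with the replicate block it was 4.79%, 6.40% and 4.43%. Raw signals of the 9 arrays of hybridisation batch 1 were nearly all whole numbers, and those of the 7 arrays of batch 2 nearly all carried decimals. Both batches hold arrays of both agents at both times. GNRH1, the GnRH precursor gene, was detected on 11 of the 16 arrays at levels of 5.95 ± 0.47 and 6.07 ± 0.37 (SD, n = 4 each) with vehicle and triptorelin at 1 h and 5.84 ± 0.40 and 5.86 ± 0.25 at 24 h, differences within the spread.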
